A study of Mus musculus with 8 samples.

Results

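The 47 genes described here encode alpha and beta tubulins, proteins that bind or break down microtubules, proteins of the growth cone, neuronal intermediate filaments, motors and actin with its regulator cofilin. They were taken from a list of gene names, and all 47 were found by Ensembl identifier among the 38924 genes of each deposited table, of which 37607 carried a symbol. Levels are given as CPM, a gene's count scaled to a library total of 1000000. The 47 genes held 7.79% to 14.8% of all counts in the dopamine libraries and 9.76% and 10.1% in the serotonin libraries.

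The RNA came from mice in which a ribosomal protein with a tag is made only in chosen neurons, so that messages on their ribosomes can be pulled out of mixed tissue (bacTRAP). The design text names a dopamine transporter line and a serotonin transporter (SLC6A4) line, while the description of all 8 libraries, serotonin included, names the DAT or Slc6a3 line, so groups were read from titles and source labels. Midbrain dopamine neurons gave 6 libraries, 2 called datL, 2 datM, 1 Lateral and 1 Medial, and hindbrain serotonin neurons gave 2. The letters L and M are not spelled out in the labels. Embryos were dissected at E15, and midbrain called E18 was taken at E15 and aged for 3 days in culture. That text is shared by all 8 libraries, but the file headers carry the mark E18 only for Lateral and Medial. The same headers place Lateral, Medial and serotonin in lane 8 of a run, and datL and datM in a run folder named for October. The labels do not tell whether replicates of a group came from different animals. The p-values below rest on the spread among libraries, and that spread may be technical.

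Microtubules are hollow polymers of alpha and beta tubulin pairs that carry transport along the axon and stiffen it. Associated proteins such as tau and MAP2 stabilise them, stathmins bind free tubulin and favour disassembly, and kinesins walk along them with cargo. At the growing tip, GAP43, MARCKS and CRMP proteins link the membrane, actin and microtubules, and neurofilaments fill the axon as it matures.

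Total counts ran from 22417739 in Medial to 33216710 in Lateral. Summed markers differed between the labelled neuron types: the summed level of 7 dopamine neuron genes was 404 to 2665 CPM in dopamine libraries and 37.7 and 43.6 in serotonin libraries. Of the 7, Pitx3 was near the floor and overlapped, at 0 CPM in datM replicate 2 and 4.01 in Medial. For 5 serotonin neuron genes it was 11.8 to 423 CPM in dopamine libraries and 4155 and 4971 CPM in serotonin libraries. Gata3 alone gave 11.8 to 422 CPM of it in the dopamine libraries, and Medial also held Tph2 at 41.5 and Gata2 at 24.2 CPM. In datL replicate 1 the 5 serotonin neuron genes summed to 423 CPM, above the 404 CPM of the 7 dopamine neuron genes. Slc6a4 and Fev were at 0 in datL and datM, and Tph2 was at 0 in 3 of these libraries and at 0.0367 CPM in datM replicate 1. Sums of 6 general neuron genes overlapped, at 1177 to 2225 CPM in dopamine and 2150 and 2212 in serotonin libraries. Of the 6, Syt1 alone was below both serotonin libraries in every dopamine library (beside 8.59% of all genes), and 0 were above. Markers of other cells also differed. Radial glia and astrocyte genes summed to 1922 to 4973 CPM in dopamine and 926 and 1205 in serotonin libraries, and proliferation genes to 181 to 567 and 80.5 and 87.3.

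Several of these genes are near copies, and this bears on how their levels can be read. Tubb2a, Tubb2b and Tubb3 show both cases in their last 30 coding bases before the stop codon, which encode the variable tails of the isotypes. The bases were read from the GENCODE M21 transcripts (GRCm38, the build of mm10) and are printed in coding direction. Capitals mark bases that differ from Tubb2a at the same distance from the stop codon:
Tubb2a: ttcgaggaggaggagggtgaagatgaggct
Tubb2b: ttcgaggaggaAgagggCgaGgatgaggct
Tubb3: GAcgaggaATCggaAgCCCaGgGGCCCAAG

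These stretches lie at chr13:34074471-34074500 (minus strand) for Tubb2a, chr13:34127474-34127503 (minus) for Tubb2b and chr8:123421650-123421679 (plus) for Tubb3. Tubb2b differed from Tubb2a at 3 of the 30 bases and Tubb3 at 18. The 3 bases leave the encoded amino acids unchanged, so Tubb2a and Tubb2b have the same protein end over this stretch. Over the whole coding sequence, Tubb2a and Tubb2b were 96.5% identical. Of all 100-base windows in the transcript, the read length of these libraries, 65.8% in Tuba1a, 73.0% in Tuba1b and 53.4% in Tuba1c also occur in another gene. The share was 36.9% in Tubb2a and 27.7% in Tubb2b, and 0 in Tubb3, Tubb4a, Tubb5 and Tubb6. Counts of the near copies are therefore uncertain one by one. Reads were counted without regard to strand, so Tuba4a, whose exons overlap those of Stk16 over 30.8% of their length, and Nefl and Nefm, which overlap each other, cannot be fully separated from these neighbours.

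Tuba1a, the main alpha tubulin of young neurons (ENSMUSG00000072235.5, chr15:98949841-98953551), was the most abundant of the 47 genes per unit of length. Its level was 32886 and 15452 CPM in the datL pair, 26026 and 12751 in datM, 26642 in Lateral, 10619 in Medial, and 19025 and 19445 in serotonin. The dopamine libraries spanned both sides of the serotonin pair. In both datL and datM, replicate 1 was the high and replicate 2 the low library. Per kilobase, scaled to a sum of 1000000 in each library, Tuba1a stood at 34227 ± 11882 (SD, n = 6) in dopamine and 26975 ± 1463 (SD, n = 2) in serotonin libraries. Tuba1b, a more widely made isotype, followed among the alpha tubulins at 990.2 ± 304 and 875 ± 51.1.

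Of all alpha tubulin counts, Tuba1a took 95.95% ± 2.01 (SD, n = 6) in dopamine and 96.4% ± 0.0704 (SD, n = 2) in serotonin libraries. The difference was within the spread between libraries (exact permutation test, two-sided, p = 0.786). With 6 libraries against 2, this test cannot give a p below 0.0714. Medial stood apart at 92.0%, with 7.41% for Tuba1b, while the other 5 dopamine libraries lay between 96.1% and 97.5%. Without Medial the difference in the Tuba1a share turned from -0.421 to 0.380 percentage points.

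Tuba1c, a minor isotype (ENSMUSG00000043091.8, chr15:99029891-99038105), showed the smallest p-value of the 47 genes between dopamine and serotonin neurons. It was measured at 98.1 and 37.8 CPM in the datL pair, 121 and 52.0 in datM, 76.8 in Lateral, 24.8 in Medial, and 1.83 and 2.92 in serotonin. Dopamine and serotonin libraries did not overlap, and the lowest of the former, Medial, was at 24.8 CPM against 2.92 in the higher serotonin library. The log2 fold change was 5.01 (SE 1.07, unadjusted p = 0.000561) in edgeR. Its share of alpha tubulin counts was 0.311% ± 0.0930 and 0.0119% ± 0.00364, again without overlap (exact permutation p = 0.0714, adjusted over 30 isotype shares 0.357). Because 53.4% of its windows are shared with other genes, the share was also computed per window that is not shared, and was 0.205% and 0.00779%. Tuba4a, an isotype of mature neurons, ranged over 0.954 to 69.6 CPM in dopamine and 3.56 and 19.2 in serotonin libraries, a 72.9-fold spread among dopamine libraries.

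Among the beta tubulins, Tubb3, the isotype used as a marker of neurons, was highest per kilobase in both neuron types. It stood at 11783 ± 3524 in dopamine and 8605 ± 694 in serotonin libraries. In dopamine libraries Tubb5 (6066 ± 1590.1) and Tubb2b (5994 ± 1153) came next and did not differ beyond their spread. Tubb2a (3975 ± 985), Tubb4a (1372 ± 542), Tubb4b (439 ± 216) and Tubb6 (49.5 ± 45.3) followed. In serotonin libraries the order was the same, with Tubb5 at 4642 ± 115, Tubb2b at 3145 ± 389 and Tubb2a at 2741 ± 4.04.

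In CPM, Tubb3 (ENSMUSG00000062380.3, chr8:123411424-123422015) was at 9201 and 5558 CPM in the datL pair, 9516 and 4735 in datM, 11451 in Lateral, 7373 in Medial, and 6749.8 and 7162 in serotonin. Its share of beta tubulin counts was 34.1% ± 2.53 in dopamine and 35.4% ± 0.723 in serotonin libraries (exact permutation p = 0.5), with both serotonin values inside the dopamine range of 31.4% to 38.9%. Tubb2b, an isotype of developing brain (ENSMUSG00000045136.5, chr13:34127008-34130354), was at 6124 and 2883 CPM in the datL pair, 4894 and 2862 in datM, 4768 in Lateral, 3794 in Medial, and 2456 and 2771 in serotonin. Every dopamine library lay above both serotonin libraries, at a log2 fold change of 0.83 (SE 0.42, unadjusted p = 0.072). It made up 18.3% ± 2.66 of beta tubulin counts in dopamine libraries and 13.3% ± 0.849 in serotonin libraries. Tubb4a, an isotype of brain, took 4.71% ± 1.16 and 6.30% ± 0.0997. Neither of these shares overlapped between neuron types, and each gave the smallest p this test allows (exact permutation p = 0.0714, adjusted 0.357). Counted per unshared window, Tubb2b still took 21.0% ± 3.12 against 15.6% ± 0.981. Counting error is small beside this, since the widest 95% Wilson interval of a beta tubulin share reached 0.158 percentage points to either side and covers counting error only.

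**Figure D1:**
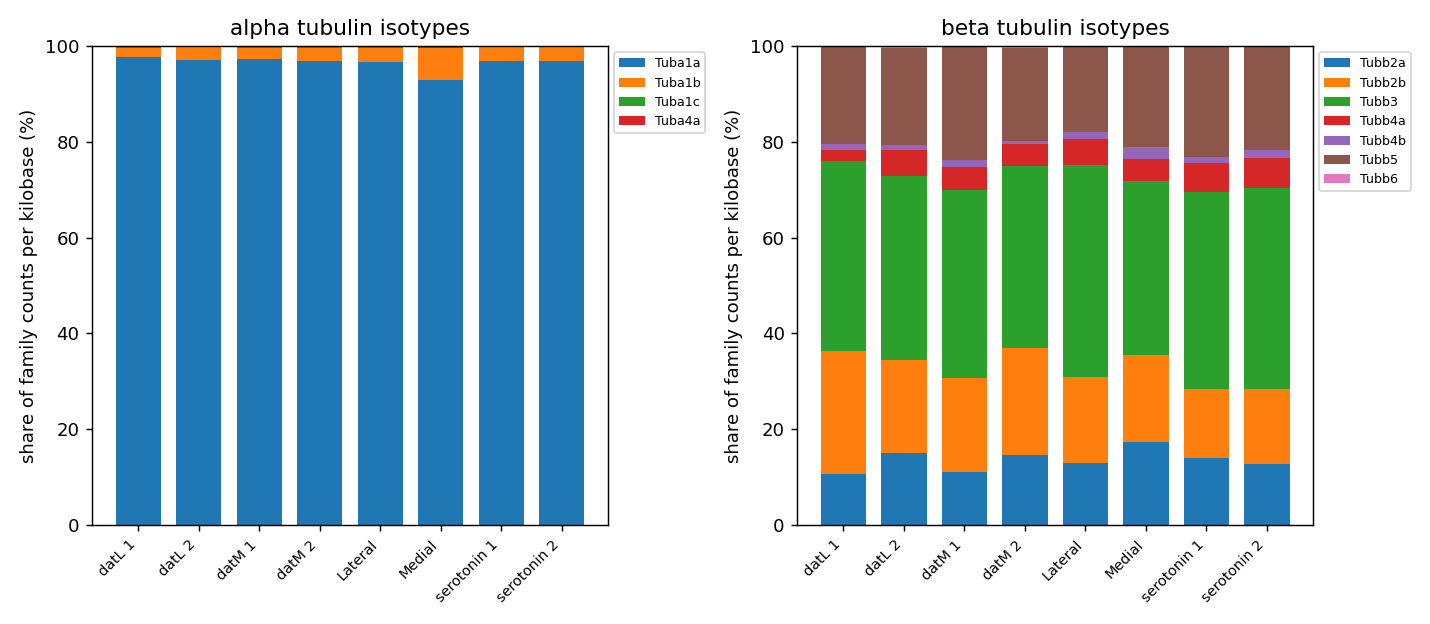
Share of each isotype (vertical axis, percent of the family's counts per kilobase) in the 8 libraries for alpha tubulins (left) and beta tubulins (right), with stacked bars. Tuba1a fills nearly the whole alpha bar and least of it in Medial, and the Tubb2b segment is smaller in both serotonin libraries than in any dopamine library.

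Across all 47 genes, the dopamine to serotonin comparison asked whether the neuron types differ in this machinery. By the quasi-likelihood test of edgeR, adjusted over all 13806 genes tested, 0 of the 47 passed the threshold of 0.05, as did 0% of all genes, and the smallest adjusted p was 0.328. At an unadjusted p under 0.05 stood 9 of 47 (19.1%), beside 4.69% of all genes tested. Of the 9, 8 were higher in dopamine neurons and 1 was lower, beside 2.8% and 1.9% of all genes. In every dopamine library the level exceeded that of both serotonin libraries for 8 genes (17.0%, beside 3.06% of all genes) and lay below that of both for 4 (8.51%, beside 8.59%). The first 8 were Tuba1c, Tubb2b, Map2, Dclk1, Dpysl3, Kif5a, Kif1b and Myo5a, and the other 4 were Stmn2, Stmn3, Gap43 and Cfl1. With CPM rescaled by TMM factors, 2 genes in place of 4 lay below both, Gap43 and Stmn3 (share of all genes not given). Without serotonin replicate 1 the number below, in CPM, was 7 (beside 12.3% of all genes). The median log2 fold change was 0.27 over the 47 genes and 0.26 over all genes. DESeq2 called 2 of the 47, Tuba1c (adjusted p = 4.76e-08) and Myo5a (adjusted p = 0.00109), and limma-voom called Gap43 (adjusted p = 0.0239). The share of all genes called by these 2 tools is not given here. The count at an unadjusted p under 0.05 was 5 without Lateral, beside 6.32% of all genes in that fit. With either serotonin library left out it was 4, beside 2.31% (replicate 1) and 2.93% (replicate 2). In these bulk samples, fewer cells of a type and less RNA per cell cannot be told apart.

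**Figure D2:**
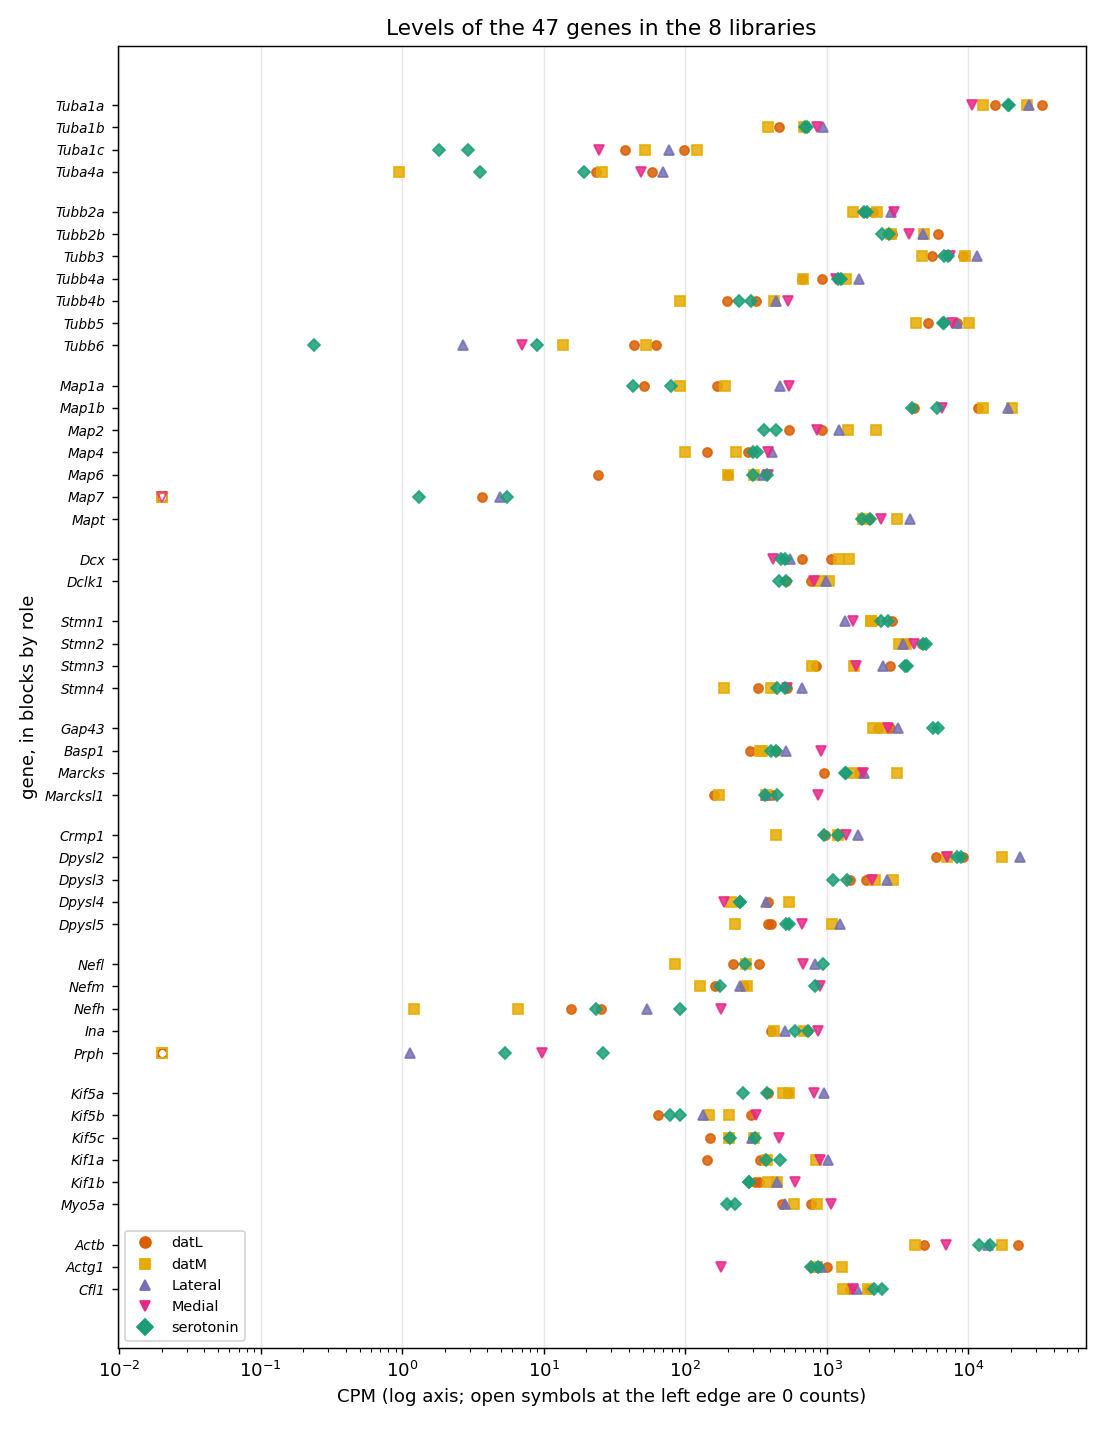
CPM of the 47 genes (vertical axis, in blocks by role) in each of the 8 libraries on a log axis, with 1 symbol per library and open symbols for 0 counts. Serotonin symbols lie left of all dopamine symbols for Tuba1c, Map2 and Myo5a and right of them for Gap43 and Stmn3.

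Of the 7 microtubule-associated protein genes, 3 had an unadjusted p under 0.05, all 3 at higher levels in dopamine libraries. Map2, which stabilises microtubules in dendrites (ENSMUSG00000015222.11, chr1:66175273-66442583), was at 544 and 928 CPM in the datL pair, 1409 and 2219.7 in datM, 1212 in Lateral, 856 in Medial, and 358 and 435 in serotonin. All 6 dopamine libraries lay above the serotonin pair, at a log2 fold change of 1.73 (SE 0.54, unadjusted p = 0.00818) in edgeR. Map1b, an early axonal protein (ENSMUSG00000052727.5, chr13:99421464-99516602), was at 4136 and 11674 CPM in the datL pair, 20342 and 12692 in datM, 19038 in Lateral, 6509 in Medial, and 3973 and 6016 in serotonin. The groups overlapped because datL replicate 1 fell between the serotonin libraries, and the log2 fold change was 1.45 (SE 0.62, unadjusted p = 0.0382). Map1a, its relative of mature neurons (ENSMUSG00000027254.7, chr2:121289600-121310832), was at 168 and 50.7 CPM in the datL pair, 91.4 and 189.6 in datM, 468 in Lateral, 538 in Medial, and 42.4 and 79.9 in serotonin. Lateral and Medial were highest, while datL replicate 2 lay within the serotonin range, at 2.10 (SE 0.84, unadjusted p = 0.0289) on the log2 scale. Mapt, which encodes tau, ranged over 1800.4 to 3855 CPM in dopamine and 1784 and 2026 in serotonin libraries. Map4, the widely made member, ranged over 99.7 to 408 CPM in dopamine and 302 and 322 in serotonin libraries. Map6, a stabiliser of cold-stable microtubules, was at 24.2 to 381 CPM in dopamine and 302 and 381 in serotonin libraries. All of these overlapped. Map7, which recruits kinesin-1, was near the floor, at 0 to 4.94 CPM and 1.32 and 5.52 CPM. The 2 doublecortin family genes, which bundle microtubules in migrating neurons, were at higher means in dopamine libraries. Dclk1 ranged over 519 to 1029 CPM in dopamine and 461 and 518 in serotonin libraries, without overlap, at 0.89 (SE 0.38, unadjusted p = 0.0358). Dcx ranged over 419.6 to 1439.8 CPM in dopamine and 477 and 503 in serotonin libraries and overlapped through Medial alone.

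In CPM, Gap43 and 2 of the 4 stathmins stood the other way. Gap43, a membrane-linked growth cone protein (ENSMUSG00000047261.9, chr16:42248442-42340651), was at 2806 and 2295 CPM in the datL pair, 2527 and 2107 in datM, 3177 in Lateral, 2713 in Medial, and 6072 and 5585 in serotonin. Dopamine libraries differed by only 1.51-fold among themselves, and both serotonin libraries were above the highest of them. The means were 2604 ± 382 CPM (SD, n = 6) against 5829 ± 345 CPM (SD, n = 2), a log2 fold change of -1.03 (SE 0.31, unadjusted p = 0.00616) in edgeR. Stmn3, a neuronal stathmin (ENSMUSG00000027581.12, chr2:181306459-181314500), was at 2802 and 842 CPM in the datL pair, 1559.7 and 785 in datM, 2501 in Lateral, 1619 in Medial, and 3674 and 3548 in serotonin. Its dopamine libraries spread 3.57-fold below the serotonin pair, at -0.96 (SE 0.48, unadjusted p = 0.0689). Stmn2, another neuronal stathmin, ranged over 3254 to 4733 CPM in dopamine and 4792 and 4984 in serotonin libraries, and the gap between datL replicate 2 and the lower serotonin library was small. After rescaling by TMM factors, datL replicate 2 lay above both serotonin libraries, so Stmn2 was no longer separated. Stmn1 and Stmn4 both overlapped. Stmn1 ranged over 1342 to 2887 CPM in dopamine and 2404 and 2701 in serotonin libraries. Stmn4 ranged over 187 to 666 CPM in dopamine and 445 and 503 in serotonin libraries. Per kilobase, Stmn3 was the highest stathmin in serotonin libraries (7337 ± 104, with Stmn2 at 5924 ± 64.7), while in dopamine libraries Stmn2 (5658 ± 1321) and Stmn3 (3986 ± 1632) overlapped. The other growth cone membrane proteins, which bind actin and phospholipid, overlapped between neuron types. Basp1 was at 289 to 916 CPM in dopamine and 403 and 439 in serotonin libraries. Marcks was at 958 to 3149.7 CPM in dopamine and 1349 and 1378 in serotonin libraries, and its relative Marcksl1 at 159 to 863 CPM in dopamine and 368 and 443 in serotonin libraries.

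All 5 CRMP genes, whose products bind tubulin and act in axon guidance, had positive log2 fold changes under each of the 5 scalings and tools tried. Of all genes tested in edgeR, 8137 of 13806 were positive too, with a median of 0.26. Of the 5, 1 had an unadjusted p under 0.05. That gene, Dpysl3, ranged over 1452 to 2918 CPM in dopamine and 1099.9 and 1388 in serotonin libraries without overlap, at 0.95 (SE 0.38, unadjusted p = 0.029). Dpysl2 (CRMP2), the most abundant of them (ENSMUSG00000022048.8, chr14:66802864-66868688), was at 5881 and 9220.3 CPM in the datL pair, 17341 and 7103 in datM, 23115 in Lateral, 7073 in Medial, and 8294 and 8861 in serotonin. Lateral and datM replicate 1 were far above the rest, and Dpysl2 made up 62.2% to 79.6% of CRMP counts in dopamine and 72.5% and 74.7% in serotonin libraries. The remaining members overlapped. Crmp1 was at 436 to 1655 CPM in dopamine and 950.0 and 1192 in serotonin libraries. Dpysl4 was at 188 to 543 CPM in dopamine and 242 and 242 in serotonin libraries. Dpysl5 was at 225 to 1236 CPM in dopamine and 511 and 539.6 in serotonin libraries.

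All 6 motor genes also had positive log2 fold changes under each of these scalings and tools, beside 8137 of all 13806 genes in edgeR. An unadjusted p under 0.05 was reached by 2 of the 6. Myo5a, an actin-based motor that carries vesicles and RNA (ENSMUSG00000034593.10, chr9:75071015-75223688), was at 479 and 774 CPM in the datL pair, 583 and 851 in datM, 503 in Lateral, 1063 in Medial, and 196 and 226 in serotonin. Every dopamine library was above both serotonin libraries, at 1.87 (SE 0.43, unadjusted p = 0.00103) on the log2 scale. Kif5a, a neuronal kinesin-1 heavy chain (ENSMUSG00000074657.4, chr10:127225696-127263363), was at 382 and 531 CPM in the datL pair, 492 and 540.4 in datM, 950.3 in Lateral, 815 in Medial, and 255 and 376 in serotonin. The groups did not overlap, but the lowest dopamine library, datL replicate 1, was only just above serotonin replicate 2, at 1.08 (SE 0.42, unadjusted p = 0.0249). Its widely made relative Kif5b ranged over 64.4 to 318 CPM in dopamine and 78.6 and 92.6 in serotonin libraries, with overlap through datL replicate 1, at 1.29 (SE 0.60, unadjusted p = 0.0546). Kif5c, the third heavy chain, ranged over 149 to 463 CPM in dopamine and 206 and 311 in serotonin libraries, also with overlap. Within the kinesin-1 genes, Kif5a took 57.6% ± 7.59 of counts in dopamine and 47.6% ± 2.17 in serotonin libraries, and Kif5c took 24.8% ± 3.82 and 38.9% ± 2.40. Both shares were without overlap (exact permutation p = 0.0714, adjusted 0.357). Kif1b, a kinesin-3 motor, ranged over 309 to 598 CPM in dopamine and 280.1 and 284 in serotonin libraries, and Kif1a, which carries synaptic vesicle precursors, over 143 to 1028 CPM in dopamine and 374 and 465 in serotonin libraries.

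Actb, the main cytoplasmic actin, was at 22313 and 4894 CPM in the datL pair, 17282 and 4223 in datM, 13774 in Lateral, 6982 in Medial, and 14141 and 11950.3 in serotonin. As with Tuba1a, replicate 1 was high and replicate 2 low in both datL and datM, and the serotonin pair lay inside their range. Actg1, the other cytoplasmic actin, ranged over 179 to 1273 CPM in dopamine and 775 and 869.7 in serotonin libraries, with Medial lowest. Cfl1, which severs actin filaments, ranged over 1309 to 1996 CPM in dopamine and 2149 and 2475 in serotonin libraries without overlap. Across the dopamine libraries, the smallest ratios of highest to lowest level belonged to Stmn2 (1.45), Gap43 (1.51) and Cfl1 (1.52), and of the genes with counts in every library Nefh (148) and Tuba4a (72.9) had the largest.

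The genes on either side differed in length. The 8 genes higher in all dopamine libraries had a median length of 9650.5 bp, the 4 lower ones 1335.5 bp, and all 47 had 3355 bp, where length is the total of merged exons in the deposited tables. Over all genes tested the corresponding medians were 6026.5, 2489.5 and 3713.5 bp. As a description across genes, which are not independent replicates and share libraries, Spearman's rho between length and log2 fold change was 0.43 over the 47 genes and 0.24 over all 13806. Within lane 8 it was 0.52 and 0.26, and for Lateral with Medial against the October libraries 0.09 and 0.02. For datL against datM it was -0.58 over the 47 genes and -0.11 over all 15177. Libraries differed in the same property: genes of 5000 bp or more took 21.9% and 25.2% of counts in serotonin libraries and 33.1% to 42.0% in 5 dopamine libraries, but 23.3% in datL replicate 1. The part of this in the differences named above was not tested.

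**Figure D3:**
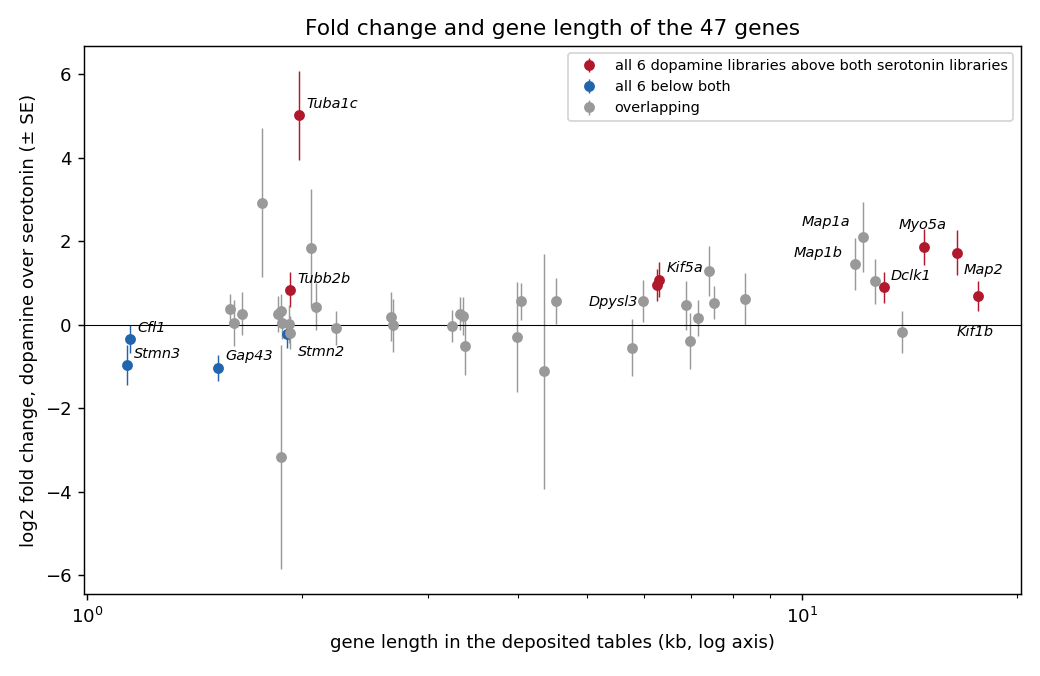
Log2 fold change of dopamine over serotonin (vertical axis, with standard error bars) against gene length (horizontal log axis, kb) for the 47 genes. Map2, Myo5a, Dclk1 and Kif1b, all higher in dopamine libraries, lie at the long end, Stmn3, Cfl1 and Gap43 at the short end, and Tuba1c is a short gene with the highest value.

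Some markers of other cells differed in this comparison. Of all genes tested, 3.06% were above both serotonin libraries in every dopamine library. Of 9 radial glia and astrocyte genes, 3 were above both serotonin libraries in all 6 dopamine libraries, and Gfap was at 8.07 CPM in Lateral, 0.0339 in serotonin replicate 1 and 0 in the other 6 libraries. Of 5 red blood cell genes it was 4, with sums of 102 to 606 CPM and 26.1 and 40.7 CPM, and of 7 proliferation genes 1. Oligodendrocyte lineage genes summed to 36.9 to 408 CPM and 21.3 and 32.8, with 0 of 6 of this kind. Microglia genes summed to at most 14.1 CPM, with Csf1r at 0 in all 8 libraries. The part of these cells in the levels of widely made genes such as Tuba1c and Myo5a was not tested.

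Within lane 8, Lateral and Medial could be compared with the 2 serotonin libraries without the run differing, though neuron type and the E18 mark cannot be told apart there. This comparison shares the serotonin libraries with the one above. In edgeR, 0 of 47 genes passed, beside 0.0224% of all 13400 genes, and the smallest adjusted p was 0.254. At an unadjusted p under 0.05 stood 14 (29.8%), beside 13.8% of all genes. Of these 12 were higher and 2 lower, beside 7.34% and 6.46%. Lateral and Medial both lay above both serotonin libraries for 25 genes (53.2%, beside 25% of all genes) and below both for 5 (10.6%, beside 24.6%), namely Stmn1, Stmn2, Stmn3, Gap43 and Cfl1. The median log2 fold change was 0.37, and 0.03 over all genes.

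The smallest p-value belonged to Map1a, at 503 ± 49.2 CPM (SD, n = 2) against 61.2 ± 26.5 CPM (SD, n = 2), a log2 fold change of 2.96 (SE 0.39, unadjusted p = 0.000295) in edgeR. Tuba1c followed at 4.37 (SE 0.88, unadjusted p = 0.00267) and Myo5a at 1.79 (SE 0.39, unadjusted p = 0.00402). Of the 6 motor genes, 5 had an unadjusted p under 0.05, among them Kif5a at 1.41 (SE 0.33, unadjusted p = 0.00505) and Kif1a at 1.12 (SE 0.29, unadjusted p = 0.00918). Map2 was at 1.31 (SE 0.33, unadjusted p = 0.00785). On the lower side Gap43 was at -1.06 (SE 0.34, unadjusted p = 0.0215) and Stmn1 at -0.91 (SE 0.29, unadjusted p = 0.0215). DESeq2 called 8 of the 47 and limma-voom 0. The share of all genes that DESeq2 called is not given here, so the 8 cannot be set against it. The count past the threshold in edgeR was 16 without Lateral, where 17.3% of all genes passed. It was 1 without Medial and 1 without serotonin replicate 2, beside 0.159% and 0.152% of all genes. The genes that passed without Lateral included Map1a (edgeR adjusted p = 0.0250), Myo5a (0.0232), Gap43 (0.0246) and Stmn1 (0.0308), with 1 Medial library assumed to vary like the serotonin pair. At an unadjusted p under 0.05 the count was 25 without Lateral, beside 37.2% of all genes, and 31 without Medial, beside 18.9%. Leaving out the first serotonin library gave 3 (beside 3.6%) and leaving out the other gave 8 (beside 4.87%).

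The comparison of datL with datM asked whether the pairs of dopamine libraries named by these letters differ. In edgeR 0 of 47 genes passed, beside 0% of all 15177 genes tested, with a smallest adjusted p of 0.597. DESeq2 and limma-voom also called 0 of the 47. At an unadjusted p under 0.05 stood 1 gene, beside 6.92% of all genes, 3.4% higher and 3.52% lower in datL. It was Map2, at 736 ± 272 CPM (SD, n = 2) for the datL libraries and 1815 ± 573 CPM (SD, n = 2) for datM, a log2 fold change of -1.22 (SE 0.44, unadjusted p = 0.0262). That count was 0 without datL replicate 1, beside 10.5% of all genes, and 8 without datL replicate 2, beside 16.4%. It was 4 without datM replicate 1 and 4 without datM replicate 2, beside 11.1% and 11.4%. With either serotonin library left out it was 0, beside 2.6% (replicate 1) and 2.57% (replicate 2).

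Both datL libraries lay below both datM libraries for 7 genes (14.9%, beside 13.2% of all genes) and above them for 2 (4.26%, beside 11.3%). The 7 were Map1b, Map2, Dcx, Dclk1, Dpysl3, Kif1a and Kif1b, with a median length of 12647 bp, and the 2 were Stmn1 and Nefh. The genes with the next smallest p after Map2 were Kif1a, Map7, Nefh, Map1b and Marcks. The log2 fold changes were Kif1a at -1.28 (SE 0.59, unadjusted p = 0.0647), Nefh at 2.47 (SE 1.28, unadjusted p = 0.0942), Map1b at -0.996 (SE 0.52, unadjusted p = 0.0962) and Marcks at -0.75 (SE 0.48, unadjusted p = 0.161). For Map7 a bound is given in place of a fitted fold, since it was at 0 in both datM libraries. Its 83 counts in datL were all in replicate 1, which makes the datL mean at least 29.0-fold higher than a floor of 3 counts over the datM pair. Proliferation genes summed to 188 and 252 CPM in datL and 412 and 567 CPM in datM, and their part in these values was not tested.

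Lateral and Medial against the 4 October libraries compares dopamine neurons with and without the E18 mark, and the mark and the run cannot be told apart. In edgeR 0 of 47 genes passed, beside 0% of all 12818 tested, with a smallest adjusted p of 0.469. DESeq2 and limma-voom also called 0 of the 47. At an unadjusted p under 0.05 stood 6 (12.8%), beside 4.48% of all genes. Of these 4 were higher and 2 lower in Lateral and Medial, beside 3.81% and 0.663%. That count was 3 without Medial, beside 8.27% of all genes. Both libraries lay above all 4 October libraries for 14 genes (29.8%, beside 12.5%) and below all 4 for 3 (6.38%, beside 2.77%). The 14 fell to 9 when CPM was rescaled by TMM factors (share of all genes not given). They were 23 without Medial (beside 19.1% of all genes), and the 3 were 7 without Lateral (beside 9.14%).

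Neuronal intermediate filaments, which fill the axon and set its calibre, had positive log2 fold changes for 5 of 5 genes, under each of the 5 scalings and tools tried. Of all genes tested in edgeR, 5925 of 12818 were positive. Nefl, the light neurofilament chain (ENSMUSG00000022055.7, chr14:68083863-68089095), was at 333 and 216 CPM in the datL pair, 270.2 and 84.9 in datM, 821 in Lateral, 675 in Medial, and 263 and 945 in serotonin. Both E18 libraries exceeded all 4 October libraries, at 1.54 (SE 0.56, unadjusted p = 0.0191) on the log2 scale, while serotonin replicate 2 was the highest of all 8 libraries. Nefh, the heavy chain (ENSMUSG00000020396.8, chr11:4938754-4948064), was at 25.3 and 15.6 CPM in the datL pair, 6.57 and 1.21 in datM, 53.6 in Lateral, 178 in Medial, and 23.4 and 92.3 in serotonin. Its October libraries were all under the lower E18 library, at 3.00 (SE 1.23, unadjusted p = 0.0346). Prph, which encodes peripherin, was at 0 in all 4 October libraries, 1.14 CPM in Lateral and 9.68 in Medial. With 255 counts in that pair, its mean was at least 153-fold higher than a floor of 3 counts over the October libraries. Nefm, the medium chain, ranged over 127 to 894 CPM in dopamine and 175 and 829.9 in serotonin libraries and overlapped through Lateral. Ina, alpha-internexin of early axons, ranged over 405 to 868 CPM in dopamine and 598 and 742 in serotonin libraries. Between dopamine and serotonin libraries, none of the 5 had an unadjusted p under 0.05 or groups without overlap.

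Map1a was at 1.83 (SE 0.57, unadjusted p = 0.00907) in this comparison, with 503 ± 49.2 CPM in Lateral and Medial (SD, n = 2) and 125 ± 64.9 CPM in the October libraries (SD, n = 4). The other genes above all October libraries in CPM were Tuba1b, Tubb2a, Tubb4b, Map4, Map6, Basp1, Crmp1, Kif5a, Kif1a and Kif1b. Tuba1b and Crmp1 were among those that overlapped after rescaling by TMM factors. Dcx, a marker of young neurons (ENSMUSG00000031285.8, chrX:143855842-143933311), was on the lower side, at 672 and 1075 CPM in the datL pair, 1229.7 and 1439.8 in datM, 548 in Lateral, 419.6 in Medial, and 477 and 503 in serotonin. The log2 fold change was -1.34 (SE 0.48, unadjusted p = 0.0179) in edgeR, and both serotonin libraries lay between Medial and Lateral. Tubb6, a minor beta tubulin, was at 43.1 and 61.8 CPM in the datL pair, 13.7 and 53.0 in datM, 2.68 in Lateral, 7.05 in Medial, and 8.92 and 0.240 in serotonin. Its log2 fold change was -3.35 (SE 1.51, unadjusted p = 0.0494), and Stmn1, the stathmin of dividing and young cells, was the third gene below all October libraries. Proliferation genes summed to 181 and 282 CPM in Lateral and Medial and 188 to 567 in the October libraries, oligodendrocyte lineage genes to 185 and 408 and 36.9 to 171. Of the 6 neuron markers, 3 were higher in both E18 libraries than in all October libraries, as were 4 of the 5 serotonin neuron genes and 1 of the 7 dopamine neuron genes. Tph2 was at 16.8 CPM in Lateral and 41.5 in Medial against at most 0.0367 in the October libraries, and Slc6a4 at 5.27 and 3.93 against 0. The dopamine neuron genes summed to 2665 CPM in Lateral and 2429 in Medial against 404 to 2037 in the October libraries. Prph, at 0 in October, was at 5.29 and 26.0 CPM in the serotonin libraries of lane 8. The part of these differences in the filament, Dcx, Stmn1 and other levels was not tested.

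**Figure D4:**
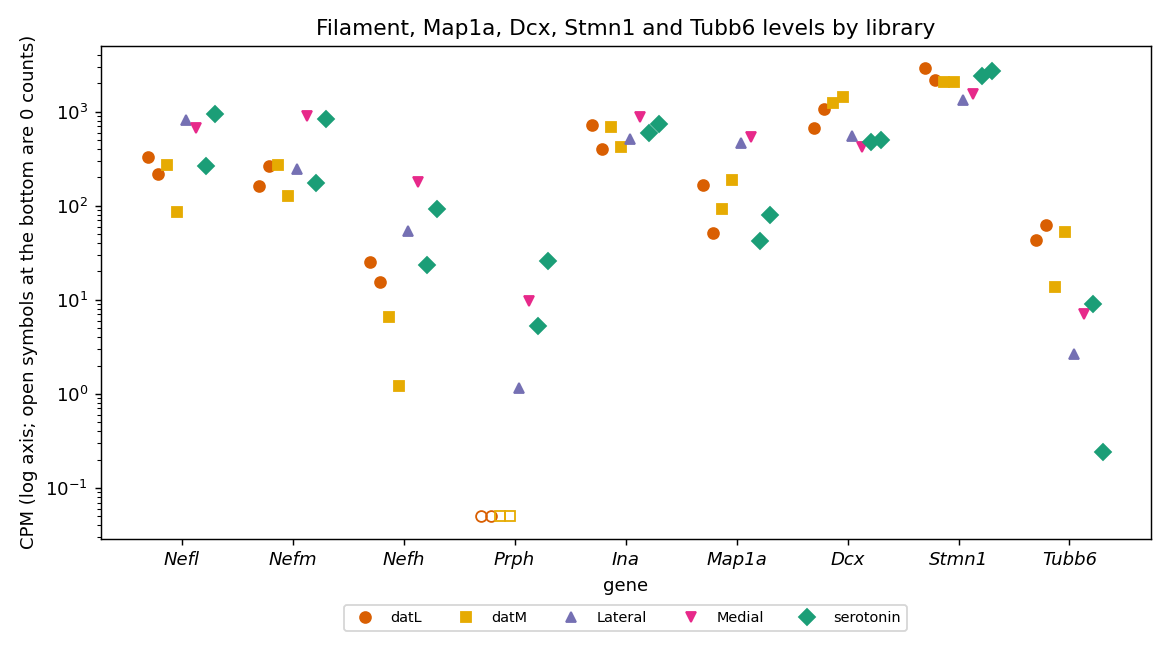
CPM of 5 intermediate filament genes, Map1a, Dcx, Stmn1 and Tubb6 (horizontal axis) in each library on a log axis, with open symbols for 0 counts. Lateral and Medial lie above datL and datM for Nefl, Nefh, Prph and Map1a and below them for Dcx, Stmn1 and Tubb6.

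Lateral and Medial, 1 library each, allowed no test. All 47 genes had at least 100 counts in 1 of them, and Lateral was more than 2-fold higher for 6 and Medial for 7, beside 25.2% and 24.1% of 11685 genes. Map7 had 164 counts in Lateral and 0 in Medial, at least 36.9-fold higher against a floor of 3 counts. Actg1 was 5.13-fold higher in Lateral (95% interval 4.97 to 5.31, counting error only), and Dpysl2 3.27-fold (3.25 to 3.29). At the other end stood Prph, at 0.118 of its Medial level (0.0814 to 0.167), Nefm at 0.274 (0.267 to 0.281) and Nefh at 0.300 (0.284 to 0.318).

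The wider microtubule and actin machinery was read from 5 lists of other genes, 64 in all, and 0 passed the threshold in edgeR in any of the 4 tested comparisons. Between dopamine and serotonin, 0 of 13 other tubulins and tubulin folding factors and 0 of 13 tubulin modifying enzymes had an unadjusted p under 0.05. Of all 63 genes tested there 5 did (7.94%), beside 4.69% of all genes. Of 15 genes of microtubule ends and severing 1 had, the polymerase Ckap5, at a log2 fold change of 1.56 (unadjusted p = 0.00869). Of 10 dynein genes, 1 was higher, the heavy chain Dync1h1 at 1.11 (unadjusted p = 0.0429), and 1 lower, the regulator Ndel1 at -1.81 (unadjusted p = 0.0489). Of 12 growth cone actin genes 2 were lower, profilin Pfn1 at -1.49 (unadjusted p = 0.0419) and cofilin Cfl2 at -0.81 (unadjusted p = 0.0472). Within lane 8 the number was 11 of 61 (18%), beside 13.8% of all genes. Of these, 4 growth cone actin genes were lower and 1 higher, led by thymosin Tmsb10 at -1.79 (unadjusted p = 0.00114) and Pfn1 at -1.62 (unadjusted p = 0.0022). Also lower there were the folding cofactors Tbcb at -1.14 (unadjusted p = 0.0255) and Tbca at -0.99 (unadjusted p = 0.0359), Ndel1 at -1.21 (unadjusted p = 0.0163), and Svbp, a partner of the enzymes that remove the last residue of alpha tubulin, at -0.97 (unadjusted p = 0.0261). Higher were the dynein intermediate chain Dync1i1 at 1.92 (unadjusted p = 0.00361) and Ckap5 at 1.04 (unadjusted p = 0.0223). Between datL and datM 5 of the 63 genes tested had an unadjusted p under 0.05 (7.94%, beside 6.92% of all genes), and between Lateral with Medial and the October libraries 2 of 62 (3.23%, beside 4.48%).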

How the data were processed

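Ribosome-bound RNA was sequenced in 6 dopamine and 2 serotonin libraries. PCR was used before and after the cDNA was fragmented, per the labels' protocols, and these name no molecular identifiers, so intervals cover counting error only. The submitters' processing notes name the aligner STAR and the mm10 build. The deposited values are raw counts per gene from featureCounts 1.4.3-p1 with GENCODE M2, not strand-specific and without a multi-mapping option, per the file headers.

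The counts were analysed in edgeR 4.0.16 (R 4.3.3) with the quasi-likelihood test, two-sided, TMM factors, the default expression filter and Benjamini-Hochberg adjustment over all genes tested at 0.05. All 47 genes passed the filter in each comparison. Dopamine with serotonin used all 8 libraries as 2 groups, datL with datM a fit of 5 groups, and the other comparisons their own libraries only. Isotype shares were tested over libraries by exact permutation. A floor of 3 counts over a group bounded folds against 0. Sequences and windows came from GENCODE M21 transcripts, and sequences of the alpha tubulins are not reported here.

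Fold changes are given for the 12, 8, 6 and 6 genes with the smallest p in the comparisons in the order of the report (for Map7 and Prph, at 0 in a group, as bounds), and for the 3 highest and 3 lowest ratios of Lateral to Medial. The genes, gene lists and tests were chosen with earlier results of these data known. Alternatives were DESeq2 1.42.0, limma-voom (limma 3.58.1), other scalings and filters, other sets of libraries, a replicate block and leaving out each library. The edgeR procedure was also run on simulated data. Their spread between libraries was lower than that fitted in every comparison except the one within lane 8. The run therefore does not show how the test performs at the spread of the other comparisons.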

Additional observations from a re-analysis of the deposited data

Results flagged for a closer look

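Among the 6 dopamine libraries, Dixon's criterion was applied to the CPM of the 47 genes and to 30 shares of a gene in its family's counts, and 11 values lay far from the other 5 libraries. Of these, 8 belonged to Medial (5 levels and 3 shares), 2 to datL replicate 1 and 1 to Lateral. For independent, normally distributed values, chance alone puts about 1 in 20 such groups past this limit. Shares within a family are tied to one another and Prph is flagged by level and share. The 11 therefore cannot be set against that rate. Basp1, a growth cone membrane protein, was at 916 CPM in Medial, with the next library at 518. Its relative in function Marcksl1 was at 863 CPM, with the next at 411. Nefm was at 894 CPM in Medial against 271 in the next library, Nefh at 178 against 53.6, and Prph at 9.68 against 1.14. The Tuba1a share of alpha tubulin counts was 92.0% in Medial, and 96.1% in the next library. The Tuba1b share was 7.41% there, and 3.36% in the next. Prph took 0.369% of intermediate filament counts in Medial and 0.0701% in Lateral, the next. In datL replicate 1 the Tubb4a share of beta tubulin counts was 2.48%, below 4.75% in the next library, and the Dpysl4 share of CRMP counts was 4.21%, above 2.35%. Nefl took 50.4% of intermediate filament counts in Lateral and 26.9% in the next library.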

How the results depend on the processing

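Of 32 named fold changes, 449 values under alternatives kept their direction, 430 of them also their side of the threshold, and 19 passed it where the reported value had not. Against 0 genes past the threshold between dopamine and serotonin, DESeq2 gave 2 and limma-voom 1, and within lane 8 DESeq2 gave 8. At an unadjusted p under 0.05, datL against datM gave 2 with DESeq2 and 0 with datL and datM only, and Lateral with Medial against the October libraries gave 10 with limma-voom. With limma-voom the median log2 fold change of all genes against October was 0.69, beside -0.11 with TMM. Genes above both serotonin libraries numbered 25 with Lateral and Medial only, those below 2 with TMM-scaled CPM, and those above the October libraries 9 with TMM-scaled CPM. Apart from Lateral and Medial only, the share of all genes under these alternatives is not given here. The counts under them therefore cannot be set against it.

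Leaving out each library in turn gave 0 genes past the threshold and 4 to 11 at an unadjusted p under 0.05 between dopamine and serotonin, 0 to 16 and 3 to 31 within lane 8, 0 and 0 to 8 for datL against datM, and 0 and 3 to 7 for Lateral with Medial against October. With each library left out in turn, non-overlapping genes ranged from 8 to 11 (beside 3.63% to 6.11% of all genes) and 4 to 7 (beside 9.9% to 13%) between neuron types. Against October they ranged from 14 to 23 (beside 18.2% to 25.8%) and 3 to 7 (beside 4.51% to 9.14%). The Tubb3 share difference ran from -2.28 to -0.791 and the Tuba1a share difference from -0.723 to 0.380 percentage points, the latter without Medial. Without datL replicate 1, Map7 has no counts in datL or datM and gives no value.

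Libraries with the same replicate number deviated together little by correlation (r = 0.12 for datL and datM, 0.04 and 0.01 with serotonin). Single genes could still split by number. In both datL and datM, Tuba1a and Actb were higher in replicate 1 than in replicate 2, and Map2 was lower. Map1b did not split in the same direction in datL and datM. Whether libraries with the same number share more than that number was not tested. With the replicate block, 0 genes passed and 9 had an unadjusted p under 0.05 between dopamine and serotonin, and 0 and 1 between datL and datM. The share of all genes with the block is not given here. Within lane 8 the block was not run, because too few numbers are shared. Scaling moved the median log2 fold change of all genes between dopamine and serotonin from 0.26 (TMM) to 0.14 (library totals) and -0.64 (limma-voom), and against October from -0.11 to 0.07 and 0.69. With 2 libraries in the smaller group of each comparison, a p that misses the threshold does not show that levels were alike.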
